A study of Homo sapiens with 5 samples.

Results

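The class III receptor tyrosine kinases are a family of 5 genes, PDGFRA, PDGFRB, KIT, FLT3 and CSF1R, and all 5 were measured among 18417 genes. Each member was taken from the probe set annotated to that symbol alone. Where a gene had several such probe sets the one with the highest mean was kept, but each member had only 1. The family was chosen by the measured difference of PDGFRA between the groups, so the members' differences are given as a description without a test.

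RNA of each clone was hybridised to 1 Affymetrix whole-transcript array, giving 5 arrays, 1 for each stable clone of Nalm6, a human line established from B-cell precursor lymphoblastic leukaemia. The control group was 2 clones with a nonsense short hairpin RNA (shRNA), and the other group was 3 clones with a shRNA against MondoA, a glucose-responsive transcription factor encoded by MLXIP (called MondoA-hairpin clones here). All clones were grown in RPMI medium with 20% fetal bovine serum and 200 mg/dl glucose, and no other treatment is named. By its title, the series concerns the part of MondoA in the metabolism, maturation and survival of these leukaemia cells. How the clones were picked is not given in the sources used here. The spread within a group is a spread between clones, and the effect of the shRNA on all cells cannot be told apart from differences that arose with cloning.

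Receptors of this class carry 5 immunoglobulin-like domains outside the cell and a tyrosine kinase domain split by an insert within it. A dimeric ligand joins a pair of receptors, which then phosphorylate each other and recruit adaptors that feed the RAS-MAPK, phosphoinositide 3-kinase, phospholipase C and STAT routes. PDGFRA and PDGFRB bind platelet-derived growth factors and are best known in mesenchymal cells. KIT binds stem cell factor on stem cells, mast cells and melanocytes, FLT3 acts in early lymphoid and myeloid progenitors and is often active in acute leukaemia, and CSF1R drives the macrophage lineage.

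The promoters of PDGFRA and FLT3 are shown because PDGFRA was the member that differed between the groups, and because MondoA with its partner MLX binds the E-box CACGTG, which in this family stood only in the FLT3 window. The sequences are the 250 bases before a transcription start, 5′ to 3′, from RefSeq on GRCh38.p14. Capitals mark each match, on either strand, to CACGTG, the RUNX core TGTGGT, the E-protein box CAGGTG or the GC box GGGCGG. The first PDGFRA start lies downstream of chr4:54229043-54229292 (plus strand), the second PDGFRA start downstream of chr4:54233710-54233959 (plus strand) and the FLT3 start downstream of chr13:28100577-28100826 (minus strand).
PDGFRA, first start: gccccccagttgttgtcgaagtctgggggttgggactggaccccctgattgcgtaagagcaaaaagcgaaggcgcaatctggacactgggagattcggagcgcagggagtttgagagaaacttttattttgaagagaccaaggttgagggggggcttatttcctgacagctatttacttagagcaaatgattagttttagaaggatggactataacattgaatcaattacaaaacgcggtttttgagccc
PDGFRA, second start: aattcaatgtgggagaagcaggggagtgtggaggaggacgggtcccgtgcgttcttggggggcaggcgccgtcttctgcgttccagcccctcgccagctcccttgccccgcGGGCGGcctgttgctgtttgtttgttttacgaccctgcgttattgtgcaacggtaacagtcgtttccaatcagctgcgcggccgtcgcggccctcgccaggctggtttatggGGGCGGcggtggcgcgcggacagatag
FLT3: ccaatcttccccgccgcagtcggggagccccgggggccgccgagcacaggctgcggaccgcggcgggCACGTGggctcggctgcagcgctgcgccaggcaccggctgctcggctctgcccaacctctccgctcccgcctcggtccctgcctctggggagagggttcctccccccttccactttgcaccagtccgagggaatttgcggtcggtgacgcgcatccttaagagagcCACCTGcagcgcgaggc

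Neither PDGFRA window held the E-box, the RUNX core or the E-protein box. The first had no GC box and a GC content of 46.8%, and the second had 2 GC boxes and a GC content of 64.0%. The FLT3 window held 1 E-box and 1 E-protein box. The windows of PDGFRB and KIT each held 1 GC box and none of the other motifs. CSF1R had 2 windows, one with 1 E-protein box and 1 GC box and the other with 1 RUNX core. Of all 35116 promoter windows of this length, 6.34% held the E-box, 11.0% the RUNX core, 17.5% the E-protein box and 42.6% the GC box, counting both strands. A match or its absence describes these letters in these windows and nothing about binding.

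Values are given in log2 units after robust multi-array average (RMA) summarisation, so a difference of 1 is a doubling, and each ± is the SD over the clones of a group (n = 2 control, n = 3 MondoA-hairpin). Pearson correlation between arrays across genes, which are not independent replicates, ran from 0.993 to 0.998. MLXIP itself read 6.42 in both control clones and 6.42, 6.47 and 6.29 in MondoA-hairpin clones 1, 2 and 3, a difference of -0.03. The target RNA was thus not visibly lower on this probe set, and the groups are named here by their labels. Both controls and MondoA-hairpin clone 1 had the same value to the last deposited digit, so a fall that the probe set does not follow would not show. Limma called 0 of the 18417 genes at an adjusted p under 0.05 (0%), and at an unadjusted p under 0.05 it called 687 (3.73%), 285 of them higher and 402 lower.

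PDGFRA, the receptor for most platelet-derived growth factor dimers, was the member that separated the groups. It read 9.33 and 9.17 in control clones 1 and 2, and 7.60, 8.06 and 8.07 in MondoA-hairpin clones 1, 2 and 3. Every MondoA-hairpin clone lay below both controls, and clone 1 was the lowest. The means were 9.25 ± 0.11 in control and 7.91 ± 0.27 in MondoA-hairpin clones, a difference of -1.34 and a 2.53-fold lower level. Taken clone by clone against the control mean, the level was 3.14-fold lower in MondoA-hairpin clone 1, 2.29-fold lower in clone 2 and 2.26-fold lower in clone 3. The gap from the lower control to the nearest MondoA-hairpin clone was 1.1. In these bulk samples fewer cells with the transcript and less RNA per cell cannot be told apart.

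PDGFRA also varied more over the 5 arrays than nearly every other gene, with an SD of 0.76 that was exceeded by 0.109% of genes. A difference of -1 or lower was seen in 24 of 18417 genes (0.130%), and 8 genes had a difference below that of PDGFRA. All 3 MondoA-hairpin clones lay below both controls in 954 genes (5.18%). Among the members, PDGFRA alone met either description. Because PDGFRA was picked for this difference, its place in these counts follows from the choice.

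PDGFRB, the second receptor for platelet-derived growth factors, read 3.72 in both control clones and 3.72, 3.80 and 3.66 in MondoA-hairpin clones 1, 2 and 3. The groups overlapped, and the difference was 0.00. KIT, the stem cell factor receptor, read 2.60 and 2.82 in control clones 1 and 2 and 2.82, 2.89 and 2.83 in MondoA-hairpin clones 1, 2 and 3. Control array 1 was the low one, and array 2 equalled the lowest MondoA-hairpin clone. The KIT difference was 0.14, with means of 2.71 ± 0.16 and 2.84 ± 0.04. It became 0.03 without control clone 1 and 0.25 without control clone 2.

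FLT3, whose receptor is widely expressed in B-cell precursor leukaemias, read 2.96 and 2.90 in control clones 1 and 2. Its values were 2.91, 2.96 and 2.96 in MondoA-hairpin clones 1, 2 and 3, within the control range, with a difference of 0.01. CSF1R, the macrophage growth factor receptor, read 2.98 in both controls and in MondoA-hairpin clones 1 and 2, and 3.02 in array 3. Its difference was 0.01. The readings of these 4 genes lay below 4.15, the median gene value on these arrays, while PDGFRA lay above it on every array. Probe sets differ in their number of probes and in binding, so no order of RNA amounts is drawn between the genes.

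**Figure D1:**
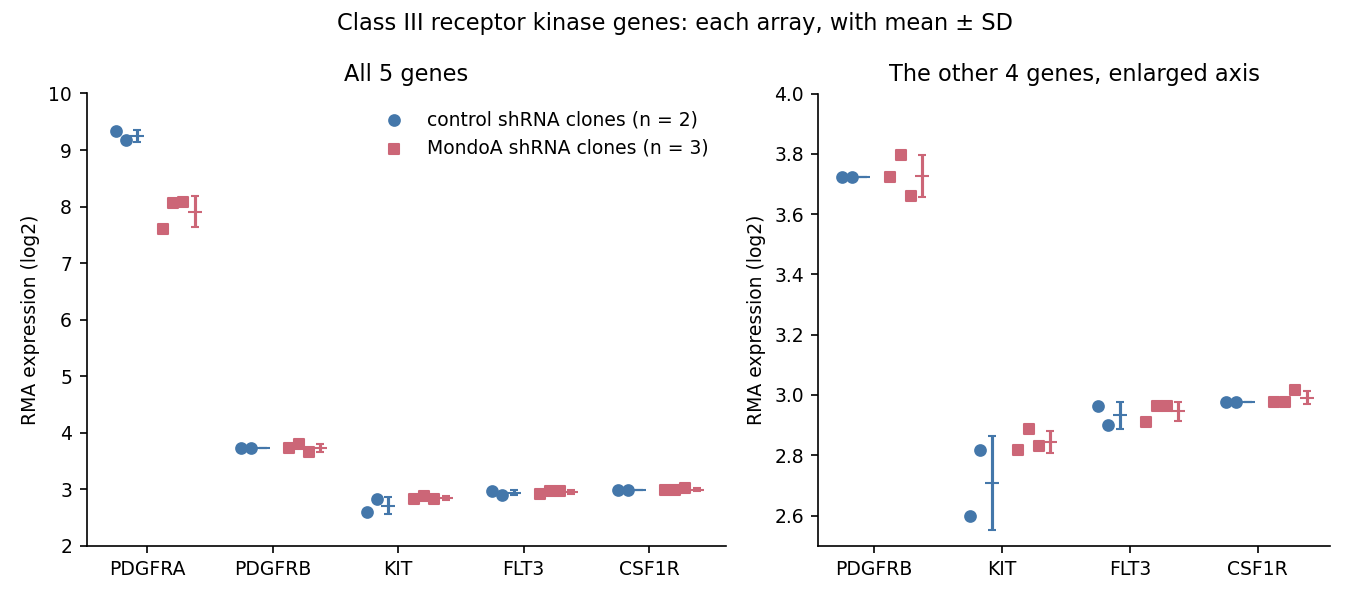
RMA expression in log2 units of the 5 class III receptor kinase genes, with a point for each array and bars for the mean ± SD (2 control shRNA clones, circles; 3 MondoA-hairpin clones, squares). The right panel enlarges the axis for the 4 genes other than PDGFRA. The PDGFRA points of the groups do not overlap (9.17 to 9.33 against 7.60 to 8.07), and those of the other genes overlap or touch.

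The low members varied little between arrays, and some of their values were equal to the last deposited digit. The value of CSF1R was the same in 4 arrays, those of PDGFRB and FLT3 in 3 arrays and that of KIT in 2 arrays, whereas PDGFRA had 5 different values. Over all genes 54.0% had the same value in at least 3 arrays. The range over the 5 arrays was 1.73 for PDGFRA, 0.29 for KIT, 0.14 for PDGFRB, 0.06 for FLT3 and 0.04 for CSF1R. Detection above background was not assessed, so a change in RNA that stays below the response of a dim probe set would not show in these 4 genes.

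The labelled cell type was checked by its markers. All 10 measured B-cell precursor markers read above the median gene value, and 9 of them above 5. The mean over that list ran from 8.65 to 8.71 in control and from 8.54 to 8.76 in MondoA-hairpin clones. Within it, DNTT, the terminal transferase of early lymphocytes, differed by -1.19, and the B-cell receptor signalling chains CD79A and CD79B by 0.91 and 0.25. These 3 of 10 stood at an unadjusted p under 0.05, against 3.73% of all genes, and none passed after adjustment (adjusted p = 0.833 by limma).

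PDGFRA is itself a mesenchymal marker, so the markers of other cells that carry class III receptors were set beside it. None of the 9 fibroblast and mesenchymal markers read above 5, and 0 stood at an unadjusted p under 0.05 in limma. COL1A1, COL1A2 and COL3A1, the fibrillar collagen genes, each had 1 value on all 5 arrays (4.79, 3.46 and 3.19). The mean over the list ran from 3.21 to 3.22 in control and from 3.21 to 3.27 in MondoA-hairpin clones. The groups overlapped, and the part of this list in the PDGFRA difference was not tested. The mean over 4 mast cell markers ran from 2.41 to 2.43 and from 2.39 to 2.41, that over 8 myeloid markers from 3.55 to 3.57 and from 3.56 to 3.65, and that over 6 stem and progenitor markers from 2.81 to 2.83 and from 2.80 to 2.84. Over 7 T and natural killer cell markers it ran from 3.63 to 3.69 and from 3.54 to 3.62, lower in every MondoA-hairpin clone. Of the 7, 4 were lower and 2 higher, with NKG7 the lowest (-0.27), and the part of that shift in the PDGFRA difference was not tested. Means above 5 were those of CD68 (5.30) and ELANE (5.51) among myeloid markers, and of CD7 (6.11) and NKG7 (6.46). In these 5 lists of other cell types, no marker stood at an unadjusted p under 0.05 in limma, against 3.73% of all genes.

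The rest of the receptor tyrosine kinase family was set beside the class III genes. Of 53 other listed kinases 48 were measured, and their median difference was 0.00, as it was over all genes. Their differences ran from -0.09 for LMTK3 to 0.17 for MST1R, the receptor for macrophage-stimulating protein. An absolute difference above 0.1 was found in 3 of the 48, MST1R (0.17), the neurotrophin receptor NTRK3 (0.16) and the ephrin receptor EPHA10 (0.11). KIT at 0.14 and the other class III genes apart from PDGFRA lay within this range. PDGFRA lay far outside it, but it was picked for its difference. Of the 48 other kinases 6 had a mean above 5, and a fall like that of PDGFRA might not show in the dimmer ones.

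At an unadjusted p under 0.05 stood 1 of the 48, the ephrin receptor gene EPHB4, against 3.73% of all genes. It read 6.68 and 6.64 in control and 6.59, 6.62 and 6.59 in MondoA-hairpin clones, a difference of -0.06 (adjusted p = 0.833 by limma). This call was lost without MondoA-hairpin clone 1, without clone 3, after a second quantile normalisation, after centring, with a block on the replicate number, among genes with a mean above 5 and without moderation. The relatives nearest to class III in structure, the vascular endothelial growth factor receptors, differed little. FLT1 read 3.02 on all 5 arrays, KDR differed by -0.05 and FLT4 by 0.00. Of the 48 genes, 41 had the same value in at least 3 arrays (85.4%), and 12 had it in all 5.

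**Figure D2:**
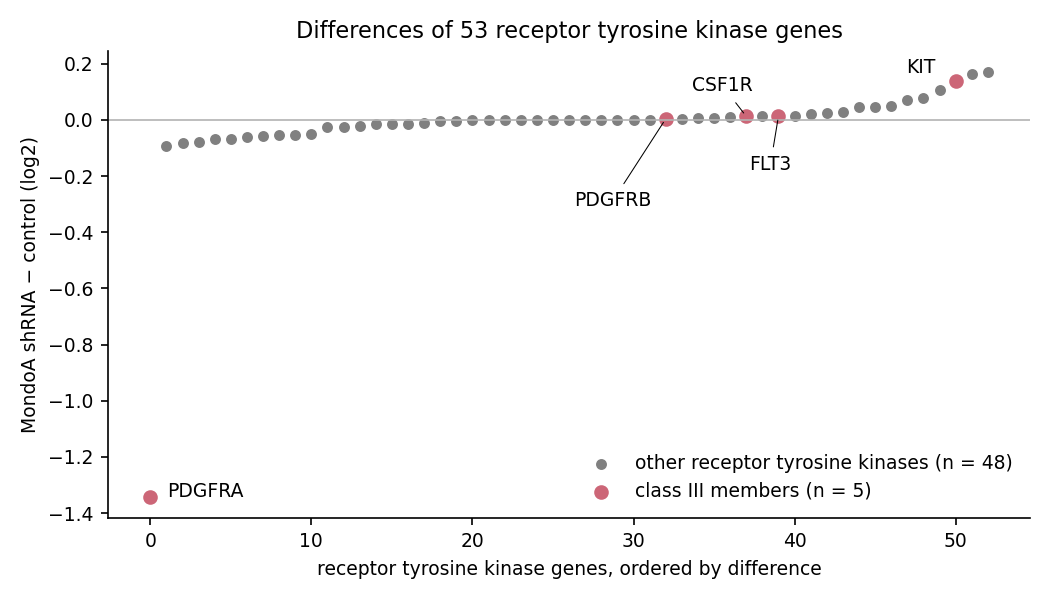
Differences in log2 expression, MondoA shRNA minus control, of 53 receptor tyrosine kinase genes, ordered from lowest to highest, with the 5 class III genes in red. PDGFRA stands at -1.34, and the other 52 genes lie between -0.09 and 0.17.

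The ligands came next. PDGFA and PDGFB encode chains of platelet-derived growth factor, and PDGFC and PDGFD encode forms activated by proteolysis. PDGFB read 3.63 on all 5 arrays. PDGFA read 3.61 on 4 arrays and 3.68 on MondoA-hairpin clone 1, with a difference of 0.02. PDGFC and PDGFD each differed by -0.01.

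KITLG, which encodes stem cell factor, read 2.28 and 2.18 in control and 2.28, 2.30 and 2.28 in MondoA-hairpin clones, a difference of 0.06. FLT3LG, the FLT3 ligand, read 5.37 on 4 arrays and 5.83 on MondoA-hairpin clone 1, so that its difference of 0.15 came from 1 clone. CSF1, a ligand of CSF1R, read 3.18 and 3.27 in control and 3.51, 3.40 and 3.27 in MondoA-hairpin clones, a difference of 0.16 with overlapping groups. IL34, the other CSF1R ligand, read 4.20 on all 5 arrays. Limma gave 0 of the 8 ligands an unadjusted p under 0.05 (against 3.73% of all genes), and 0 passed after adjustment. Only 1 of the 8, FLT3LG, had a mean above 5, so a change in the dimmer ligands might not show.

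Downstream, the ligands, adaptors, RAS-MAPK and AKT cascade and negative regulators made a list of 80 genes, of which 66 were measured. Their median difference was 0.00, and 0 of the 66 had an absolute difference of at least 1, which 40 of all genes had (0.217%). At an unadjusted p under 0.05 stood 3 higher and 2 lower (7.58% of the list, against 1.55% higher and 2.18% lower over all genes), and 0 passed after adjustment. The 5 genes were LYN, VAV1 and YES1 among adaptors and proximal effectors, and SPRY2 and PTPN6 among negative regulators.

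LYN, a SRC-family kinase that binds activated KIT and the B-cell receptor, read 7.62 and 7.49 in control and 8.02, 8.12 and 7.91 in MondoA-hairpin clones, a difference of 0.46. All 3 MondoA-hairpin clones were above both controls, a separation found for 894 of all genes (4.85%). VAV1, a guanine nucleotide exchange factor of blood cells, read 6.13 and 6.04 in control and 6.41, 6.55 and 6.76 in MondoA-hairpin clones, a difference of 0.49, again without overlap. YES1, another SRC-family kinase, read 5.58 and 5.37 in control and 5.12, 5.20 and 5.20 in MondoA-hairpin clones, a difference of -0.29. YES1 lies on chromosome 18, where all 110 genes with a mean above 5 were lower in the MondoA-hairpin clones (median difference -0.42), and the part of that block in the YES1 value was not tested. In all, 3 of 24 measured adaptors and proximal effectors stood at an unadjusted p under 0.05 (against 3.73% of all genes), a count that became 7 without control clone 1 and 1 with a block on the replicate number. The median difference of the 24 was -0.01.

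SPRY2, a feedback inhibitor induced by receptor kinase signalling through RAS and MAPK, went in the direction of PDGFRA. It read 6.87 and 6.76 in control and 5.95, 6.29 and 6.37 in MondoA-hairpin clones, a difference of -0.62 (adjusted p = 0.833 by limma). As with PDGFRA, every MondoA-hairpin clone lay below both controls and clone 1 was the lowest. Its relative SPRY4 differed by -0.01 but was dim, with 1 value of 2.86 on 4 arrays. Of the other listed SPRY, SPRED and DUSP genes with a mean above 5, SPRY1 differed by -0.22 with overlapping groups. SPRED2 differed by -0.04, SPRED1 by 0.02 and DUSP6 by 0.03, so SPRY2 did not stand for these genes. PTPN6, the phosphatase SHP-1, which restrains KIT and B-cell receptor signals, read 8.78 and 8.81 in control and 8.85, 8.90 and 8.85 in MondoA-hairpin clones, a difference of 0.07. CBL and CBLB, the ubiquitin ligases that send class III receptors to degradation, differed by -0.09 and -0.04. Of 25 measured negative regulators 2 stood at an unadjusted p under 0.05 (against 3.73% of all genes), and the median difference was -0.03. That count ran from 1 to 4 with 1 array left out and was 0 with a block on the replicate number.

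In the RAS-MAPK and AKT cascade, limma gave 0 of 9 measured genes an unadjusted p under 0.05 (against 3.73% of all genes). After adjustment 0 passed. The largest differences were those of the kinase genes AKT2 (0.21) and MAPK3 (0.15), which encodes ERK1, and the median was -0.01. AKT1 differed by -0.01.

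**Figure D3:**
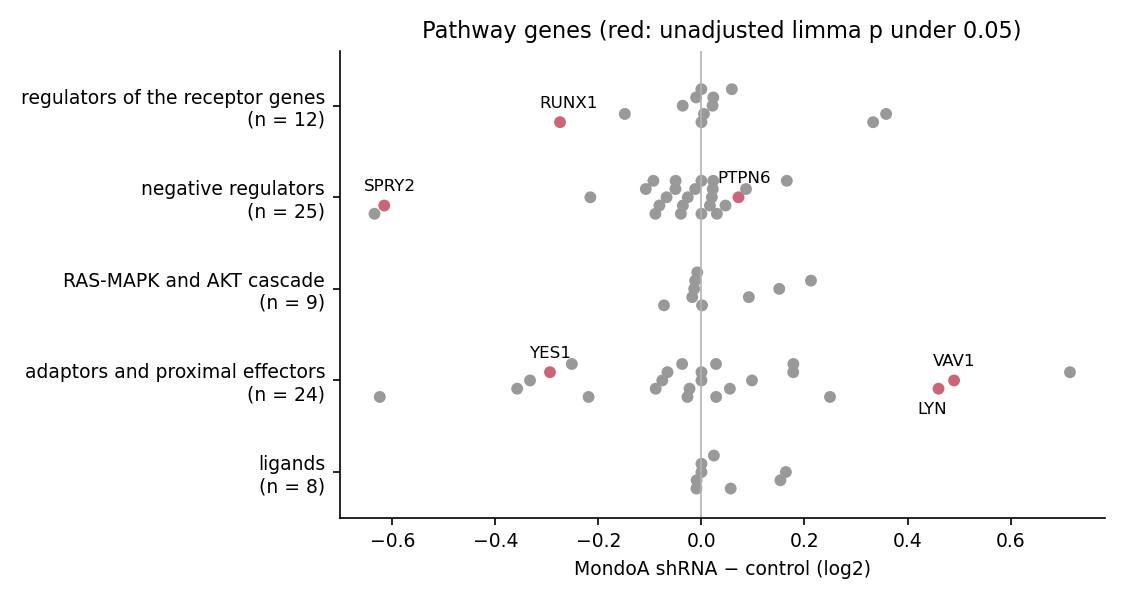
Differences in log2 expression, MondoA shRNA minus control, of measured genes in 5 lists around the class III receptors, each point a gene, red where the unadjusted limma p was under 0.05. The 8 ligands lie between -0.01 and 0.16, and SPRY2 (-0.62), LYN (0.46) and VAV1 (0.49) are the red points farthest from 0.

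The next list held transcription factors known to regulate the class III receptor genes or the cells that carry them. Of 16 listed, 12 were measured, with a median difference of 0.00, and 1 stood at an unadjusted p under 0.05 (against 3.73% of all genes). This was RUNX1, a regulator of CSF1R and KIT in blood cells, which read 7.36 and 7.43 in control and 7.18, 7.08 and 7.09 in MondoA-hairpin clones. Its difference was -0.27 without overlap between the groups (adjusted p = 0.833 by limma), and the call was lost with the arrays quantile normalised again and with a block on the replicate number. PAX5, the B-lineage factor that represses FLT3 and CSF1R, read 9.03 in both controls and 9.03, 8.96 and 9.11 in MondoA-hairpin clones, a difference of 0.00. SPI1, the factor PU.1 that activates CSF1R, differed by 0.33, and MEIS1, a factor upstream of FLT3, read 2.40 on all 5 arrays.

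The genomic neighbourhood was examined because PDGFRA and KIT are adjacent measured genes on chromosome 4, as are CSF1R and PDGFRB on chromosome 5. FLT3 lies on chromosome 13. Of the 10 nearest measured neighbours of PDGFRA, 5 on each side, 1 was below both controls in every MondoA-hairpin clone. This was LNX1, a ubiquitin ligase gene 4 places from PDGFRA, which read 5.11 and 4.95 in control and 3.97, 4.53 and 4.08 in MondoA-hairpin clones, a difference of -0.84. The genes between LNX1 and PDGFRA differed by -0.11 (RPL21P44), 0.06 (CHIC2) and -0.05 (GSX2). FIP1L1, known as a fusion partner of PDGFRA in eosinophilic leukaemia, differed by -0.08.

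On the other side of PDGFRA, KIT, KDR and TMEM165 differed by 0.14, -0.05 and -0.05. Of these 10 neighbours, only LNX1 thus shared the low reading. Just 2 of the 10 had a mean above 5, FIP1L1 and TMEM165. CHIC2 (mean 4.54) and GSX2 (4.55), between LNX1 and PDGFRA, were about as bright as LNX1 (4.53) without its low reading. A fall in neighbours dimmer than these might not show, and a link between the LNX1 and PDGFRA readings was not tested. Over chromosome 4, the 240 genes with a mean above 5 had a median difference of -0.03, with 128 lower. On chromosomes 5 and 13 the medians were 0.00 over 325 genes and 0.01 over 132 genes. Of the 30 neighbours of the 5 members that were no member themselves, 0 differed by 1 or more, and LNX1 was the only one below both controls in every MondoA-hairpin clone, against 5.18% of all genes.

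**Figure D4:**
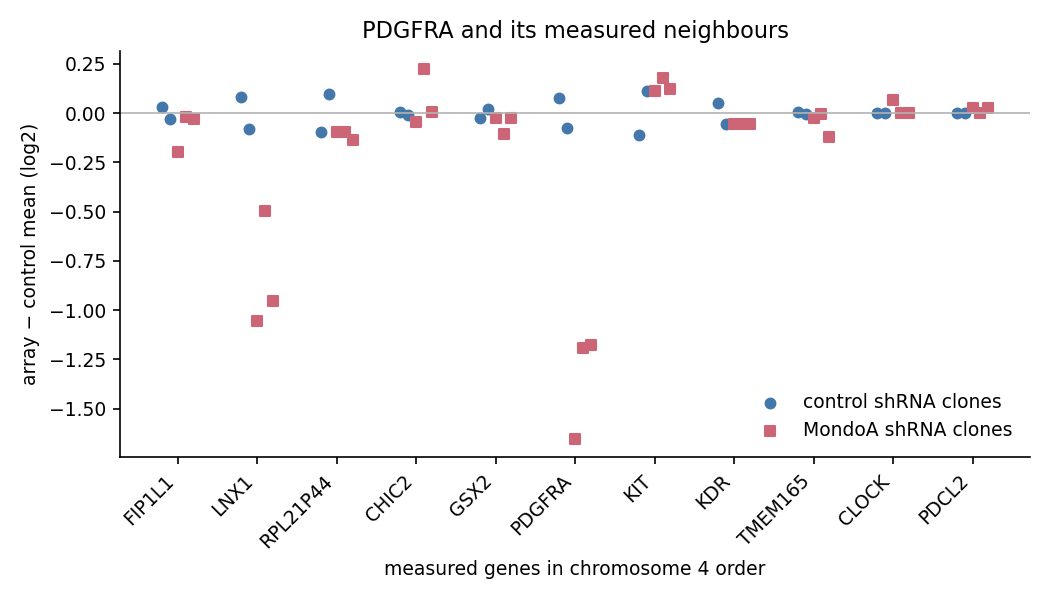
Log2 expression of PDGFRA and 5 measured neighbours on each side in chromosome 4 order, each array (circles, control; squares, MondoA shRNA) given as its difference from the control mean of that gene. PDGFRA and LNX1 are low in all 3 MondoA-hairpin clones, and KIT beside PDGFRA is not.

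The genes with the pattern nearest to PDGFRA were sought by the root mean square distance between log2 values centred on each gene's mean over the 5 arrays. The 903 candidates had an SD of at least 0.3 over the arrays. The nearest was CLEC14A, an endothelial lectin gene, at a distance of 0.12, with 8.47 and 8.35 in control and 6.75, 7.27 and 6.94 in MondoA-hairpin clones. The helicase gene DDX19B followed at 0.14, with 6.60 and 6.21 in control and 4.83, 5.52 and 5.41 in MondoA-hairpin clones. The cholesterol transporter gene NPC1, on chromosome 18, came next at 0.15, before RGS16, a regulator of G-protein signalling, at 0.16 and XAF1, an antagonist of an apoptosis inhibitor, at 0.19. In all of these but XAF1, as in PDGFRA, MondoA-hairpin clone 1 was the lowest of the 5 arrays.

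The differences of these 5 genes ran from -1.42 (CLEC14A) to -1.11 (NPC1), near that of PDGFRA. The genes were picked for nearness over these same arrays, so their likeness in difference and in clone order follows from the choice. Each lies on another chromosome (14, 16, 18, 1 and 17 in the order of distance). For KIT, the member with the second largest difference, the same search could show no close pattern, because the SD of KIT itself, 0.11, lay below the minimum of 0.3 asked of the candidates.

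**Figure D5:**
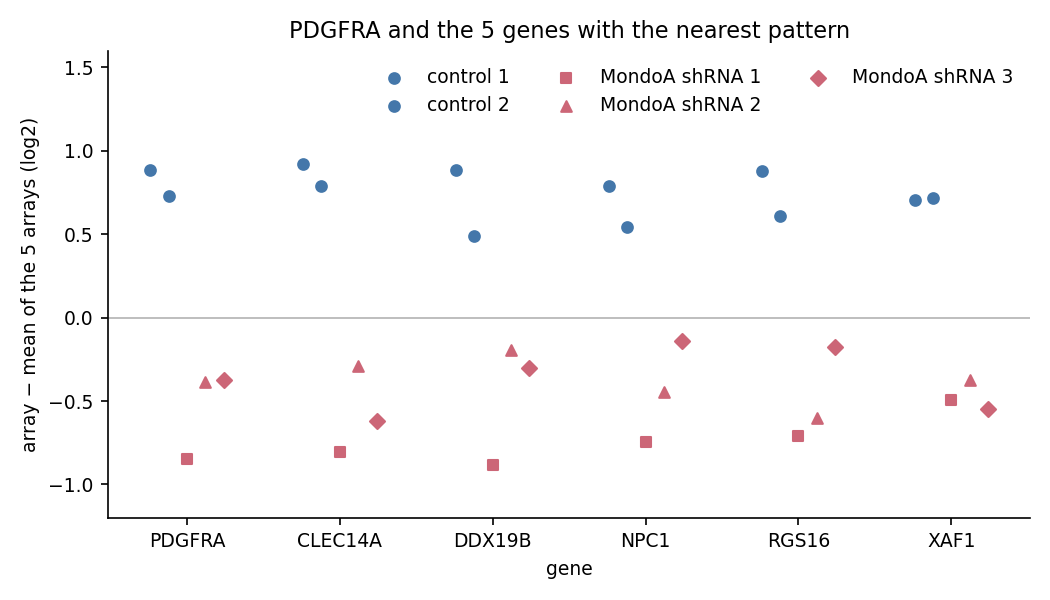
Log2 expression of PDGFRA and the 5 genes with the nearest pattern over the arrays, each array given as its difference from the gene's mean over the 5 arrays (circles, control; squares, triangles and diamonds, MondoA-hairpin clones 1, 2 and 3). Both controls are above 0 and all MondoA-hairpin clones below it in the 6 genes, a likeness for which the 5 were picked.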

How the data were processed

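The 5 arrays (2 control and 3 MondoA-hairpin clones) were summarised by the authors with RMA in Affymetrix Expression Console 1.1, per the submitters' processing notes, into deposited log2 values, 1 for each of 33297 probe sets. RMA subtracts background, equalises the arrays' distributions and combines probes by median polish, which can compress differences of dim genes. The log base is not stated and was taken as 2, as RMA gives. Symbols came from the platform annotation, updated by Entrez number through RefSeq (19429 of 19460 probe sets with 1 symbol matched). Probe sets with several symbols (1754) or none (12083) were left out, and the probe set with the highest mean was kept for each of 18417 genes.

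Genes were compared by limma 3.58.1 in R 4.3.3 (linear model, empirical Bayes, two-sided, Benjamini-Hochberg over all genes, threshold 0.05), tested on simulated data. The p-values measure the spread between these clones. Members and lists were chosen with earlier results of these data known. Of 200 listed genes 173 were measured. Named genes were the members, the ligands, list genes at an unadjusted p under 0.05 or, failing these, the 2 largest differences. The 5 nearest patterns of PDGFRA were named too, and of those of KIT only SGCB. Any other gene was named with its values in view. Alternatives left out each array, normalised or centred the arrays again, averaged a gene's probe sets or took the dimmest, used a mean above 5, other variance moderation or the replicate number as a block.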

Additional observations from a re-analysis of the deposited data

How the results depend on the processing

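PDGFRA ran from -1.42 to -1.19 over the alternatives. It has 1 probe set, so the choice of probe set could not change its value, and the replicate block repeats the value without MondoA-hairpin clone 3. With the arrays' groups not overlapping, leaving out 1 array could not turn its sign. PDGFRB (-0.03 to 0.04), FLT3 (-0.02 to 0.05) and CSF1R (0 to 0.02) stayed within 1 SD of their values. KIT was 0.027 without control clone 1 and 0.247 without control clone 2, and 0.12 to 0.15 otherwise. Titles of both groups use the same replicate numbers, but nothing links clones of 1 number. Same-numbered arrays deviated in opposite directions (r = -0.304 and -0.243 over 7450 genes, which are not independent). With 2 controls, each of these values is mirrored by a pairing of unlike numbers (0.304 and 0.243). With a replicate block on that number, which sets MondoA-hairpin clone 3 aside, PDGFRA was -1.42. The block moved the counts at an unadjusted p under 0.05 to 1 for adaptors and 0 for negative regulators, regulators of the receptor genes and other receptor tyrosine kinases.

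The limma count of 0 genes past the adjusted threshold was 2 after a second quantile normalisation, 2 after centring, 3 without moderated variances and 0 to 752 with 1 array left out. The 752 came without control clone 1 and 454 without control clone 2, where 1 control is left and its spread is borrowed from the other group. With 1 array left out, the counts at an unadjusted p under 0.05 ran from 0 to 1 for ligands, 2 to 7 for adaptors, 1 to 4 for negative regulators, 1 to 2 for regulators of the receptor genes and 0 to 7 for other receptor tyrosine kinases. Quantile normalisation gave 1 for the RAS-MAPK and AKT cascade, 0 for regulators of the receptor genes and 0 for other receptor tyrosine kinases. Centring, a mean above 5 and no moderation each gave 1 for negative regulators and 0 for other receptor tyrosine kinases, and a trended prior gave 1 for negative regulators. The cause was not tested. The number of arrays limits the precision.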

Other observations

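Some genes that transmit class III receptor signals separated the groups without reaching an unadjusted p under 0.05 in limma, and were chosen after their values were seen. Over all genes, 5.18% separated lower and 4.85% higher. Of 24 adaptors and proximal effectors 3 separated lower and 3 higher, and of 25 negative regulators 3 lower and 1 higher. These counts include genes at an unadjusted p under 0.05. PLCG2 (-0.25), CBL (-0.09) and AKT2 (0.21) also separated, with smaller differences than the genes that follow. STAT5A, a transcription factor activated by FLT3 and KIT, read 4.13 and 3.90 in control and 4.48, 5.27 and 4.43 in MondoA-hairpin clones, a difference of 0.72. SOCS2, a STAT5-induced brake on cytokine and FLT3 signals, read 6.38 and 6.32 in control and 5.11, 6.13 and 5.91 in MondoA-hairpin clones, a difference of -0.63. GAB2, a docking adaptor used by KIT and FLT3, read 5.29 and 5.71 in control and 4.82, 5.18 and 4.62 in MondoA-hairpin clones, a difference of -0.62. STAT5A was high in MondoA-hairpin clone 2 and SOCS2 was low in array 1, so the clones did not order the genes alike.

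The most frequent value of CSF1R, 2.98 on 4 arrays, was held to the last deposited digit by 19 other genes on at least 3 arrays. The most frequent values of PDGFRB and KIT were each held by 3 other genes and that of FLT3 by 0. A further gene on chromosome 4, SGCB, which encodes a sarcoglycan, read 3.24 and 3.44 in control and 3.81, 3.97 and 3.77 in MondoA-hairpin clones, a difference of 0.52 opposite to that of PDGFRA and LNX1.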
